A study of Homo sapiens with 6 samples.

Results

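The 81 genes described here encode the nuclear subunits of the mitochondrial respiratory chain and of ATP synthase. They were chosen by symbol alone, as the rows of the authors' deposited table whose names are NDUFA, NDUFB, NDUFC, NDUFS or NDUFV followed by a number alone (complex I), SDHA to SDHD (complex II) or CYC1, or begin with UQCR (complex III), COX4 to COX8 (complex IV) or ATP5, without antisense and pseudogene symbols. The table holds 15794 human genes in all. Of the 81, 36 belong to complex I, 4 to complex II, 10 to complex III, 13 to complex IV (NDUFA4, once placed in complex I, is counted there) and 16 to ATP synthase. The other 2, ATP5S and ATP5SL, carry an ATP5 symbol but are a coupling factor and a complex I assembly factor.

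The cells were eHAP, a haploid human line, and both groups expressed Cas9. The labels give both the same treatment, transfection with a plasmid that carries guide RNAs and puromycin resistance, followed by puromycin selection. In 3 replicates, labelled knockout, the guides targeted TFDP1, and 3 control replicates, labelled wild-type, had no knockout gene (their guide is not stated). TFDP1 encodes DP1, a partner with which classical E2F transcription factors bind DNA. Polyadenylated RNA was prepared 5 days after transfection, after 10000 S2 cells of Drosophila had been added to 500000 eHAP cells as a spike-in. The labels call the replicates biological and do not say that a clone was isolated, so the targeted samples may be mixed populations of edited cells.

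The electron transport chain passes electrons from NADH through complex I, and from succinate through complex II, to ubiquinone, then through complex III and cytochrome c to complex IV, where oxygen is reduced. Complexes I, III and IV pump protons out of the matrix, and ATP synthase lets them back in to make ATP. Complex II is also an enzyme of the citric acid cycle and is the one complex of the chain built from nuclear genes alone. The others combine nuclear subunits with a few encoded by mitochondrial DNA, and no row carries the symbol of a mitochondrially encoded subunit. In many nuclear genes of this system, sites for NRF1, for the ETS factor GABP and for YY1 lie close to the transcription start.

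Every log2 fold change, level and adjusted p as deposited comes from the authors' deposited table, in which the 2 groups are compared by a likelihood ratio test of edgeR. That table has no column per sample. Replicate spread and library depth are therefore unknown, and replicate variation enters only through the authors' p. A standard error was approximated as the absolute log2 fold change over the square root of the likelihood ratio. It was below 0.1 for 78 of the 81 genes, with a median of 0.064, and approximate 95% intervals were made from it. The table does not say which group is the numerator. TFDP1 itself had a log2 fold change of 1.17 at 226 CPM (counts scaled to library size, not to transcript length). A positive value thus means a higher level in whichever group had more TFDP1 transcript, and a negative value a lower level there. Of 11 blood cell markers checked 4 had a row, while PTPRC and GATA1 had none. KIT (-0.98, at 15.3 CPM) was negative, ITGA2B (0.49, at 5.31 CPM) positive, and the other 2 were not called. Fibroblast markers had a row for 5 of 9 and epithelial markers for 5 of 7, and 4 of each 5 were negative, with medians of -1.36 and -0.82. Their part in the results was not tested.

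Most respiratory genes had slightly negative values. At an adjusted p under 0.05 in the authors' deposited table, 42 of the 81 genes (51.9%) were negative, 2 (2.47%) were positive and 37 were not called. Over all rows 22.2% were negative and 17.3% positive, 39.5% in either direction. The median log2 fold change of the 81 genes was -0.16, against -0.03 over all rows. Of the 81, 69 (85.2%) lay below 0, against 53.5% of all rows. Values mostly below 0 were not particular to the members. Of 80 ribosomal protein genes 66 (82.5%) also lay below 0, with 25 negative (31.25%), 0 positive and a median of -0.08. The 42 negative genes differed by 1.10-fold to 1.37-fold, and their own median was -0.26 on the log2 scale. The 2 positive genes, both of complex I, were at 1.39-fold (NDUFS4) and 1.19-fold (NDUFB3).

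Members had a median level of 113 CPM against 23.5 CPM over all rows, and genes at such levels were called more often. Between 24.9 and 303 CPM, the range that holds the members from the 5th to the 95th percentile of their levels, 26.3% of the 7118 other genes were negative and 24.9% positive (51.1% in either direction). Their median log2 fold change was -0.0016. Of the 73 members within that range 38 were negative (52.1%) and 2 positive. The distribution of the members, drawn against those other genes, peaked left of 0. The split of calls depended on the centring. With the median of the ribosomal protein genes, -0.08, taken as 0, 26 members were negative (32.1%) and 6 positive (7.41%). The negative share of the called members thus went from 42 of 44 to 26 of 32. Over all rows, 16.1% were then negative and 26.7% positive.

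**Figure D1:**
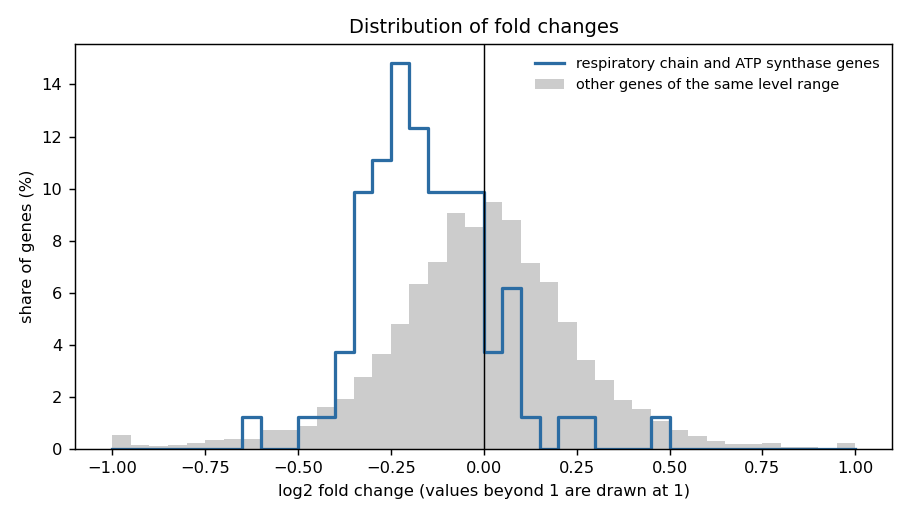
Share of genes (vertical axis, %) by log2 fold change in the authors' deposited table (horizontal axis), for the 81 respiratory chain and ATP synthase genes (blue line) and for the 7118 other genes between 24.9 and 303 CPM (grey bars), with values beyond 1 drawn at 1. The line peaks left of 0, with 85.2% of the members below 0, while the grey bars centre on 0.

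Promoter sequences are shown first for a selection of members. Members that moved, members that did not and the 2 that went the other way can thus be read side by side. Each runs from 150 bases before to 30 bases after the RefSeq start (GRCh38.p14), 5′ to 3′ on the gene's own strand. Capitals mark every match, on either strand, to the words GCATGCGC (NRF1), CCGGAAGT (ETS factors such as GABP), AAGATGGC (YY1) and TTTGGCGC, TTTCGCGC or TTCCCGCC (E2F with DP), with overlapping matches joined.
UQCR11 (chr19:1605433-1605612, minus strand): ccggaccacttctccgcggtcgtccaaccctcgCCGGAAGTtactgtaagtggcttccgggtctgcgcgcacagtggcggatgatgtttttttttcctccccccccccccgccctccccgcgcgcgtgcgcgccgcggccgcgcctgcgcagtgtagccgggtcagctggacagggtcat
NDUFA13 (chr19:19516075-19516254, plus strand): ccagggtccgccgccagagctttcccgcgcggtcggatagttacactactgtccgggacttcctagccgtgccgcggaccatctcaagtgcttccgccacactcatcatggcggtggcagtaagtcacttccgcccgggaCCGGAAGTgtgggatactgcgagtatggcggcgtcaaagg
NDUFA8 (chr9:122159750-122159929, minus strand): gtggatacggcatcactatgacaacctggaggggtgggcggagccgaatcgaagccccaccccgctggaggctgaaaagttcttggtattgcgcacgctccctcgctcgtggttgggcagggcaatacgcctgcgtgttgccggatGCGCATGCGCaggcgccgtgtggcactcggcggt
ATP5C1 (chr10:7788027-7788206, plus strand): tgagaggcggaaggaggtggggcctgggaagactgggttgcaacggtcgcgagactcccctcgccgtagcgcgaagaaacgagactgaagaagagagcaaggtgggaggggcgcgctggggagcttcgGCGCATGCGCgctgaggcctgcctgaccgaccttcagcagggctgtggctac
COX7C (chr5:86617791-86617970, plus strand): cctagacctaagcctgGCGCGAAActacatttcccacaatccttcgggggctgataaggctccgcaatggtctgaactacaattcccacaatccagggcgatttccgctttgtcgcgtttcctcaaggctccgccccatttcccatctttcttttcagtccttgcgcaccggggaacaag
NDUFS4 (chr5:53560489-53560668, plus strand): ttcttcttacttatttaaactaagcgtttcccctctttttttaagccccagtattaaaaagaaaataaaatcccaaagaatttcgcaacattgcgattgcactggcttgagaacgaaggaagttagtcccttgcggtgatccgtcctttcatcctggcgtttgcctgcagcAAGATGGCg
NDUFB3 (chr2:201071851-201072030, plus strand): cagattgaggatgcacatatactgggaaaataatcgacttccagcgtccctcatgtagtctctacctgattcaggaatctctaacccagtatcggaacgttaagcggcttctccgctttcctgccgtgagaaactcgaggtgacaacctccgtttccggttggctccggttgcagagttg
SDHB (chr1:17054003-17054182, minus strand): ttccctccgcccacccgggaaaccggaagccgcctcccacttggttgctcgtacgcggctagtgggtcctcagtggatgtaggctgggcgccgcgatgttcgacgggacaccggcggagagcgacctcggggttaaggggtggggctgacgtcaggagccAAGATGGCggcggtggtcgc
SDHD (chr11:112086723-112086902, plus strand): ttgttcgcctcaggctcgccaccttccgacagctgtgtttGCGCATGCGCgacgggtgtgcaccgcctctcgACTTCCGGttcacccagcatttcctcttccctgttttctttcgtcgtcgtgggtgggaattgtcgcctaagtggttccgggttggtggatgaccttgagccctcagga

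Of the 9, UQCR11, NDUFA13, NDUFA8, ATP5C1 and COX7C were negative, NDUFS4 and NDUFB3 positive, and SDHB and SDHD not called. A match stood in promoters of each behaviour. The negative genes shown all hold one and are not typical of the negative members. Of 32 negative members with a matched promoter, 11 held an NRF1, ETS or YY1 word and 3 an E2F word. The promoters of NDUFV1, NDUFA11, COX6B1 and NDUFB2, also negative, hold none of the words. NDUFA8, ATP5C1 and SDHD each hold the NRF1 word on both strands, overlapping to form its palindrome. UQCR11, NDUFA13 and SDHD hold an ETS word, COX7C an E2F word, and NDUFS4 and SDHB the YY1 word just after the start. NDUFB3 shows no capitals in this window.

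Promoters were matched for 64 of the 81 members, in windows of 300 bases that reach 250 before and 50 after the start. The NRF1 word was in 13 of them (20.3%), against 5.16% of the 12013 promoters matched to a row of the table. The YY1 word was in 11 (17.2%, against 4.94%) and the ETS word in 9 (14.1%, against 7.97%). At least 1 of these 3 words was in 27 members, of which 11 were negative, 1 positive and 15 not called. Over all 1990 promoters with any of these words, 20.1% of the genes were negative and 20.2% positive. The median log2 fold change of those 27 was -0.13, and that of the 37 members without any was -0.16. The 17 members without a matched promoter, among them the negative genes ATP5D, CYC1 and NDUFS5, are not in these medians, and the difference was not tested.

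An E2F word was in 8 member promoters (12.5%, against 6.89% of those matched to a row). These were ATP5A1, ATP5G1 and COX7C, which were negative, and ATP5L, COX8A, NDUFS1, NDUFS6 and UQCRC1, which were not called. None of the 8 was positive, but only 2 of all 64 members with a matched promoter were. Over all 828 promoters with an E2F word, 30.6% of the genes were positive and 16.1% negative. With so few positive members, their share among the 8 cannot be compared with that. A match is only a match of letters, and binding was not measured here.

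Complex I (NADH dehydrogenase), the entry point for electrons from NADH, gave 19 negative, 2 positive and 15 uncalled genes of 36. Their median log2 fold change was -0.17, with a range from -0.45 to 0.47 in the authors' deposited table. Its members differed among themselves more than those of the other complexes (SD over the 36 genes 0.193, against 0.015 over the 4 of complex II and 0.147 over the 13 of complex IV). Accessory subunits, which surround the catalytic core, made up most of the calls, with 17 negative and 2 positive of 29. Of the 7 nuclear core subunits, which carry the flavin and the iron-sulphur clusters, 2 were negative and 5 not called.

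NDUFV1, the core subunit that binds NADH and its flavin, had a log2 fold change of -0.36 (interval -0.47 to -0.26) at 301 CPM, with an adjusted p of 1e-09 in edgeR's likelihood ratio test. With trends on length and GC removed NDUFV1 was at -0.22, still called. NDUFV2, its iron-sulphur partner, was at -0.27. NDUFV3, an accessory subunit beside them, was at -0.28, so that all 3 NDUFV genes were negative. NDUFS1, a core subunit which carries further iron-sulphur clusters in the same arm, was not called, at 0.01 (interval -0.13 to 0.14). The core subunits NDUFS3, NDUFS7 and NDUFS8, on the way to the ubiquinone site, were at -0.05, -0.08 and -0.11, and each interval included 0. After removal of the trends that fold change showed with transcript length and GC content over all genes, NDUFS7, whose transcripts are 66.8% G and C, was called positive at 0.13.

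Among the accessory subunits, the largest negative value was that of NDUFB2, a small protein of the membrane arm (chromosome 7, positions 140690777 to 140722790 of GRCh38, plus strand). NDUFB2 had a log2 fold change of -0.45 (interval -0.61 to -0.29) at 40.3 CPM and an adjusted p of 8.85e-07 in edgeR's likelihood ratio test. Its span overlaps those of BRAF, ADCK2 and NDUFB2-AS1, and no source used here states whether counting used strand, so reads of these genes may not be told apart. NDUFA13, also known as GRIM-19, was at -0.36, NDUFA11 at -0.34 and NDUFA8 at -0.34, and their adjusted p as the authors deposited them were 9e-08, 3.89e-08 and 6.98e-07. Both NDUFA11 and NDUFA13 sit in the membrane arm, and both genes lie on chromosome 19. With length and GC trends removed they were at -0.18 and -0.17, still called. NDUFA13 overlaps YJEFN3 on the same strand. By series, 8 of 12 NDUFA, 6 of 11 NDUFB, 1 of 2 NDUFC and 1 of 8 NDUFS genes were negative.

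NDUFS4 was the strongest exception (chromosome 5, positions 53560633 to 53683340, plus strand). Its product is a small accessory subunit of the NADH-oxidising arm, and loss of NDUFS4 is a known cause of Leigh syndrome. NDUFS4 had a log2 fold change of 0.47 (interval 0.31 to 0.63) at 24.9 CPM, with an adjusted p of 9.83e-08 by the likelihood ratio test of edgeR. NDUFB3, a membrane arm subunit, was at 0.25 (interval 0.11 to 0.40), with an adjusted p of 0.00338 in edgeR's test as deposited. The NDUFB3 span overlaps FAM126B on the other strand, and the span of NDUFS4 overlaps no other gene of the table. NDUFS4 is among the longest members by gene span, at 122708 bases, whereas NDUFB3 spans 14318. With length and GC trends removed the 2 genes were at 0.47 and 0.24.

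Several uncalled accessory subunits lay near 0 in the authors' deposited table. NDUFA9, which sits near the ubiquinone site, was at -0.01 and NDUFB6 at -0.00, with intervals of -0.13 to 0.11 and -0.16 to 0.16. NDUFA5, NDUFA6 and NDUFB4 were at 0.09, 0.05 and 0.11. Over all complexes, 16 of the 37 uncalled members had an interval that lay wholly above the members' own median of -0.16, and 7 had an unadjusted p under 0.05.

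**Figure D2:**
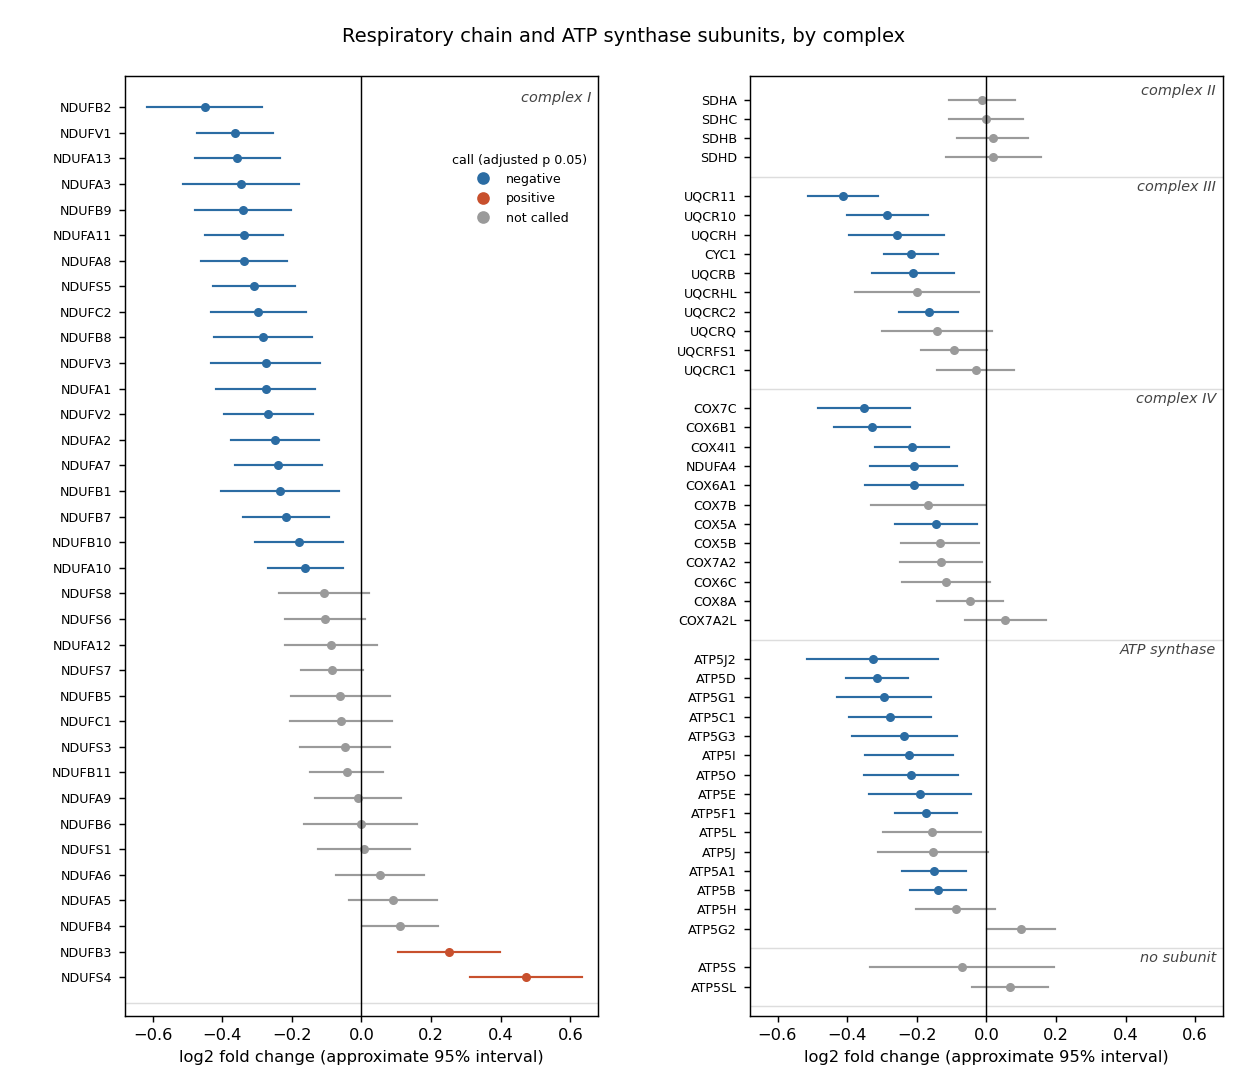
Log2 fold change of 78 members in the authors' deposited table (points, horizontal axis) with its approximate 95% interval (lines), grouped by complex and sorted within it, blue for negative, orange for positive and grey for uncalled genes. Complex II sits on 0, most genes of the other complexes lie left of 0, and NDUFS4 and NDUFB3 lie to the right. COX6B2 and ATP5L2, both under 1 CPM, are left out, as is 1 further member.

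Complex II (succinate dehydrogenase) was flat. In the authors' deposited table its 4 genes had log2 fold changes of -0.01 for SDHA, the flavoprotein, 0.02 for SDHB, the iron-sulphur subunit, -0.00 for SDHC and 0.02 for SDHD, the membrane anchors. None was called, and the smallest adjusted p was 0.834 in edgeR's likelihood ratio test. Levels ran from 71.5 to 143 CPM. Intervals reached at most from -0.12 to 0.16 (SDHD), and all 4 excluded the median of the members, -0.16. None of the 4 was called when re-centred on the median of all rows or of the ribosomal protein genes, or with length and GC trends removed. Stricter or narrower settings could not have given a call. Between complex II and the other complexes no test was made.

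Complex III (cytochrome bc1), which hands electrons from ubiquinol to cytochrome c, gave 6 negative, 0 positive and 4 uncalled genes of 10. All 10 values were below 0, with a median of -0.21. UQCR11, one of its smallest subunits (chromosome 19, positions 1597172 to 1605490, minus strand), had the smallest p of all members. UQCR11 was at -0.41 (interval -0.51 to -0.31) at 123 CPM, with an adjusted p of 2.62e-14 in edgeR's likelihood ratio test. UQCR10, another small subunit, was at -0.28, CYC1, the haem-bearing cytochrome c1, at -0.22, and UQCRH, the hinge protein that helps cytochrome c dock, at -0.26 in the authors' deposited table. With length and GC trends removed UQCR11 was at -0.27, still called, and CYC1 lost its call, at -0.06 (adjusted p = 0.256 recomputed from the likelihood ratio).

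The other parts of complex III that take part in catalysis or form its core were closer to 0. UQCRFS1, the Rieske iron-sulphur protein, was at -0.09 and UQCRC1, a core protein, at -0.03, both uncalled in the authors' deposited table. UQCRC2, the other core protein, was at -0.16 (adjusted p = 7.26e-04) and lost its call when re-centred on the ribosomal protein genes. UQCRHL is an intronless copy of UQCRH that can share its reads, so its value of -0.20 at 17.9 CPM, and part of that of UQCRH, are uncertain.

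Complex IV (cytochrome c oxidase) gave 6 negative, 0 positive and 7 uncalled genes of 13. Their median was -0.14. The largest values were those of COX7C, at -0.35 (interval -0.48 to -0.22), and of COX6B1, which faces the intermembrane space, at -0.33 (interval -0.44 to -0.22). Their adjusted p were 1.36e-06 and 4.6e-08 as the authors deposited them. COX4I1, a subunit through which ATP regulates the enzyme, was at -0.21 with an adjusted p of 4.81e-04, and NDUFA4 was at -0.21. With length and GC trends removed COX4I1 lost its call, at -0.12, and COX6B1 was at -0.19, still called. COX5A and COX5B, which lie on the matrix side, had close values on either side of the threshold, -0.14 and -0.13, with adjusted p of 0.0467 and 0.0576 in edgeR's likelihood ratio test. COX5A and NDUFA4 lost their calls when re-centred on the ribosomal protein genes, and COX5A also with length and GC trends removed.

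Several subunits of complex IV exist as isoforms with tissue-restricted forms, and eHAP cells carried the ubiquitous ones. COX4I1, COX6A1, COX6B1, COX7A2, COX7B and COX8A had between 112 and 328 CPM in the authors' deposited table. Their counterparts COX4I2, COX6A2, COX7A1, COX7B2 and COX8C had no row, and COX6B2 was at 0.469 CPM, too low for its value of 0.20 to be placed (interval -0.80 to 1.21). Among the ubiquitous forms COX4I1, COX6A1 (-0.21) and COX6B1 were negative. COX6A1 lost its call when re-centred on the ribosomal protein genes (-0.13) and with length and GC trends removed (-0.10). COX7A2 (-0.13), COX7B (-0.17) and COX8A (-0.05) were not called. COX7A2L, a relative of COX7A2 that joins complexes III and IV into supercomplexes, was at 0.05, uncalled.

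ATP synthase gave 11 negative, 0 positive and 5 uncalled genes of 16. Their median log2 fold change was -0.20. All 5 genes of its F1 head and central stalk were negative in the authors' deposited table. ATP5B and ATP5A1, the beta and alpha subunits that form the catalytic ring, were at -0.14 and -0.15. ATP5C1, the gamma subunit that turns within the ring, was at -0.28 (adjusted p = 2.86e-05), ATP5D, the delta subunit, at -0.31 (adjusted p = 7.24e-11) and ATP5E, the epsilon subunit, at -0.19. Not all of these calls held. Re-centred on the ribosomal protein genes, ATP5A1 (-0.07), ATP5B (-0.06) and ATP5E (-0.11) were no longer called, and with length and GC trends removed ATP5D, whose transcripts are 69.3% G and C, was at -0.06. ATP5C1 was called under each of these settings.

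In the membrane part and the peripheral stalk 6 of 11 genes were negative. These were ATP5F1 (subunit b, -0.17), ATP5O (the oligomycin sensitivity protein at the top of the stalk, -0.22), ATP5I (subunit e, -0.22), ATP5J2 (subunit f, -0.33), ATP5G1 and ATP5G3 in the authors' deposited table. Re-centred on the ribosomal protein genes, ATP5F1 (-0.09), ATP5O (-0.14) and ATP5I (-0.14) were no longer called, and ATP5I was at -0.08, uncalled, with length and GC trends removed. ATP5J2 overlaps PTCD1 on the same strand. Stalk subunits ATP5H (d) and ATP5J (F6), at -0.09 and -0.15, and ATP5L (g), at -0.16, were not called. ATP5L2, a scarce copy of ATP5L at 0.811 CPM, had the lowest value of all members, -0.60, with an interval of -1.36 to 0.15.

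The c subunit, which forms the turning ring in the membrane, is made from 3 genes whose mature products are identical and whose import sequences differ. Their transcripts did not move alike in the authors' deposited table. ATP5G1 was at -0.29 (interval -0.43 to -0.16) at 83.8 CPM and ATP5G3 at -0.24 (interval -0.39 to -0.08) at 323 CPM, with adjusted p of 1.32e-04 and 0.00884 in edgeR's likelihood ratio test. ATP5G2 was at 0.10 (interval 0.0023 to 0.20) at 158 CPM and was not called (adjusted p = 0.112). The interval of ATP5G2 does not overlap those of the other two, but the difference itself was not tested. ATP5G2 was called positive when re-centred on either reference (0.13 and 0.18) or with length and GC trends removed (0.23). ATP5G3 lost its call when re-centred on the ribosomal protein genes (-0.15), and ATP5G1 was at -0.18, still called, with the trends removed.

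Promoters of the 2 c subunit genes that were matched are given in the same form, because they differ in which word they hold. ATP5G1 has an E2F word and ATP5G2 an NRF1 word.
ATP5G1 (chr17:48892637-48892816, plus strand): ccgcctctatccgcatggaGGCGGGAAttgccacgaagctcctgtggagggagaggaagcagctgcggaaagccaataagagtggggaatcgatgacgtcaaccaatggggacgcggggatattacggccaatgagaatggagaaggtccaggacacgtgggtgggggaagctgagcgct
ATP5G2 (chr12:53676054-53676233, minus strand): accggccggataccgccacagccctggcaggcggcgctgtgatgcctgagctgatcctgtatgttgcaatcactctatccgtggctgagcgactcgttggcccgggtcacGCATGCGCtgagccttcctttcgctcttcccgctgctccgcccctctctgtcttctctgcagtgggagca

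Of the 2 genes with an ATP5 symbol that encode no subunit, ATP5S was at -0.07 and ATP5SL at 0.07, both uncalled in the authors' deposited table. Some related proteins are not captured by the symbols. USMG5, a small ATP synthase subunit also called DAPIT, was at -0.45 (adjusted p = 3.6e-08), C14orf2, another small ATP synthase protein, at -0.22, and ATPIF1, the inhibitor of ATP hydrolysis by the enzyme, at -0.33 (adjusted p = 1.57e-07). NDUFAB1, the acyl carrier protein of complex I, was at -0.14 and not called.

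Proteins that assemble the complexes without staying in them were seldom called. Of 58 assembly factors 6 were negative, 4 positive and 48 not called in the authors' deposited table. Their median log2 fold change was -0.02 and their negative share 10.3%, beside 22.2% of all rows. Their median level, 34.4 CPM, was lower than that of the subunits, and the difference between assembly factors and subunits was not tested. For complex I, TMEM261 (-0.28) and TIMMDC1 (-0.19) were negative and TMEM126A (0.29) positive. For complex IV, the copper chaperone SCO1 (-0.24) and COA3 (-0.30) were negative, and CMC1 (0.38) and CMC2 (0.29) positive. UQCC1 (-0.18) of complex III and ATPAF1 (0.18) of ATP synthase were the only called factors of their lists.

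Among regulators of respiratory gene expression more genes were positive than negative. Of 19 transcription factors, coactivators and mitochondrial transcription proteins with a row, 7 were positive and 2 negative, while 10 were not called. Positive calls were thus 36.8% and negative ones 10.5%, beside 17.3% and 22.2% of all rows. Their median was 0.12. NRF1, which gives its name to the promoter word, was at 0.44 (adjusted p = 3.77e-09) in the authors' deposited table. TFAM, which packages mitochondrial DNA and takes part in its transcription, was at 0.26 (adjusted p = 2.44e-14). GABPB1, a subunit of GABP, was at 0.46 (adjusted p = 1.31e-09), and its DNA-binding partner GABPA, whose gene overlaps ATP5J, at 0.29. The nuclear receptor gene ESRRA (-0.35) and POLRMT (-0.20), the mitochondrial RNA polymerase, were negative.

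Neighbouring pathways gave mixed pictures, to be read against 22.2% negative and 17.3% positive over all rows. Citric acid cycle and pyruvate dehydrogenase genes gave 9 negative (50%), 2 positive (11.1%) and 7 uncalled of 18, with OGDH (-0.35), MDH2 (-0.17) and PDHB (-0.28) negative and IDH2 (0.24) and FH (0.12) positive in the authors' deposited table. Electron carriers and ubiquinone synthesis gave 4 negative and 4 positive of 17 (23.5% each), near the shares of all rows. COQ10B (-0.57), which binds ubiquinone, ETFB (-0.16) and COQ9 (-0.21) were the negative genes with the smallest p, and ETFDH (0.29), PDSS2 (0.25) and COQ7 (0.26) the positive ones. Carrier, porin and cristae genes gave 4 negative, among them VDAC1 (-0.19), PHB (-0.23) and MINOS1 (-0.32), and 1 positive, CHCHD3 (0.15), of 17, a negative share of 23.5%, which is also near that of all rows. Genes that copy mitochondrial DNA gave 3 positive, DNA2 (0.27), PRIMPOL (0.45) and MGME1 (0.19), and 1 negative, SSBP1 (-0.15), of 12 (25% and 8.33%).

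**Figure D3:**
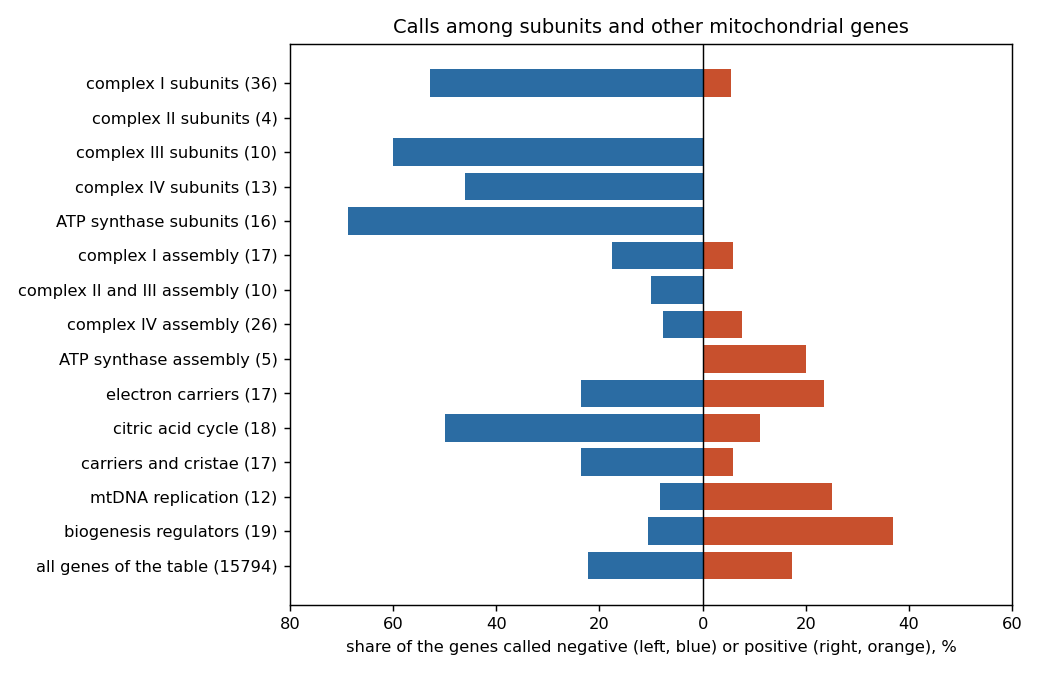
Share of each gene group (vertical axis, number of genes with a row in brackets) called negative (blue, to the left) or positive (orange, to the right) at an adjusted p under 0.05 in the authors' deposited table (horizontal axis, %). Subunits of complexes I, III, IV and ATP synthase reach 46.2% to 68.8% negative, against 22.2% for all genes and 10.3% over the assembly factors.

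Members share features that moved with fold change across the whole table. Their transcripts are short, with a median of 766 bases against 2447 over all rows. Of other genes in the same range of levels with transcripts under 1000 bases, 34.7% were negative and 12.5% positive. Their median was -0.07, so that the members' median lay below it too. GC content was related to fold change over all genes. Of 4 classes of equal size by GC content, the lowest had a median of 0.09 among the other genes and the highest one of -0.15. In each class the members' median was lower than that of the other genes, at -0.11 against 0.09 in the lowest (12 members), -0.15 against 0.01 in the second (28), -0.21 against -0.07 in the third (27) and -0.20 against -0.15 in the highest (14). The distance between the 2 medians was thus smallest among the genes richest in G and C. Removing trends on both features left 32 negative (39.5%) and 6 positive (7.41%) members, and a median of -0.11. The negative share was 32 of 38 called against 42 of 44 as deposited. Of the 15246 genes with known length and GC content, 21.6% were then negative and 16.2% positive. The part of length and GC content in the result was not tested beyond this.

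Fold change was also set against other features of the genes. Across the 81 members, which share their libraries, the log2 fold change had a Spearman correlation of 0.32 with gene span, -0.22 with GC content, 0.22 with transcript length and -0.15 with level, given as a description. The 12 members on chromosome 19 had a median of -0.28, with 8 negative (66.7%). The 69 on other chromosomes had one of -0.16, with 34 negative (49.3%). Other genes of chromosome 19 also lay lower, at -0.11 against -0.02 for genes elsewhere, and their median GC content was 60.3%. Of these other genes 31.2% were negative on chromosome 19 and 21.9% elsewhere. Without the 35 members whose span overlaps another gene of the table, 24 of 46 members were negative and 1 positive.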

How the data were processed

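One table of results over 6 libraries was analysed. The authors computed its log2 values (fold change and mean CPM), a p-value with its adjusted p-value, and a likelihood ratio, here a score per gene on 1 degree of freedom. Per the submitters' processing notes the tools were HISAT2, Trimmomatic, edgeR and featureCounts, with hg38 and dm6, and no versions. No source used here gives library scaling, strand setting or depth, so fold changes could not be set against the spike-in. Genes were called at an adjusted p under 0.05 as deposited, and 9 p-values are listed at 0. An adjustment recomputed over the 15794 genes gave 43 negative and 2 positive members, and 22.8% of all rows negative. For re-centring (on the median of all rows, or on RPL and RPS genes without kinases and pseudogenes) and removal of length and GC trends by lowess (span 0.3), p was recomputed from the approximate standard error with Benjamini-Hochberg adjustment. Re-centring on the median of all rows was tested on simulated data, with effects larger than those of the members. Removal of trends was tested on simulated linear trends. Calls after re-centring on the ribosomal protein genes or after removal of trends were not tested in this way. Positions, lengths and GC content (medians over coding transcripts) came from GENCODE 29 on GRCh38 for 15246 genes (96.5%), and promoters from RefSeq. Named genes are the called members with the smallest p of each complex, core subunits and isoforms whatever their p, positive members, and the called genes with the smallest p of each other list, with further members named after their values were seen. The separate value of 1 member is not reported here. The members and lists were chosen with earlier results of these data known. Python 3.11.15, numpy 2.4.6, pandas 2.3.3, scipy 1.17.1, statsmodels 0.14.6 and matplotlib 3.10.9 were used.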

Additional observations from a re-analysis of the deposited data

How the results depend on the processing

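The median log2 fold change of the members was below 0 under all 10 alternatives. Under a stricter threshold, a recomputed adjustment or a minimum change it could not move, since these leave all fold changes as they are. Only re-centring and removal of trends changed the values themselves. The others left out rows or members. Negative members outnumbered positive ones under each of the 10. No member of complex II was called, which stricter or narrower settings could not have changed. Re-centring on the median of all rows gave 40 negative and 4 positive members. Re-centring on the ribosomal protein genes gave 26 negative and 6 positive members and a median of -0.083, with 3 negative genes in complex IV and 4 in ATP synthase. A minimum change of 1.2-fold left 21 negative and 1 positive, with 2 negative genes in complex III, 2 in complex IV and 4 in ATP synthase, since most changes were smaller. With length and GC trends removed there were 32 negative and 6 positive members, with 3 negative genes in complex IV. NDUFB7 went from -0.22 to 0.020 (the cause was not tested). Over all rows, 20.5% were negative and 20.4% positive when re-centred on their median, and 16.1% and 26.7% on the ribosomal protein genes. With the minimum change these shares were 15.3% and 10.4%. With trends removed they were 21.6% and 16.2% of 15246 genes. Without members that overlap another gene, an alternative chosen after seeing the data, 24 were negative and 1 positive, with 9 negative genes in complex I and 4 in ATP synthase, as fewer members were counted. No paired analysis was possible because the table holds no values per sample, and for the same reason no replicate could be left out.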

Other observations

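Some members share a promoter region with a gene on the other strand. In GENCODE 29, 11 members have, within the 1000 bases before their start, the start of a gene of the table that runs the opposite way. Pairs of genes that overlap at their starts were not counted. Of these 11 partners, 1 was negative, 3 positive and 7 not called in the authors' deposited table. Over all rows 22.2% were negative and 17.3% positive, and a difference of the partners from these shares was not tested. UQCRH (-0.26) and LRRC41 (-0.56), whose starts lie 23 bases apart, were both negative. NDUFB1 (-0.23) and CPSF2 (0.32), a cleavage and polyadenylation factor gene 20 bases away, went opposite ways, and so did NDUFV3 (-0.28) and WDR4 (0.17). The third positive partner was AKAP3 (0.73), beside NDUFA9, which was not called. The mitochondrial ribosomal protein genes MRPL36 (-0.13) and MRPL47 (-0.00) were not called, and neither were their partners NDUFS6 and NDUFB5. NDUFA4L2, a relative of NDUFA4 known to respond to hypoxia, was at 0.57 and 1.53 CPM and was not called (adjusted p = 0.108 in the authors' deposited table).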
